A study of Mus musculus with 6 samples.

Results

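In the livers of NC and MAFLD mice, 188 late-annotated miRNAs were studied, out of 1546 mature mouse miRNAs listed for the series. They are the miRNAs with a number of 5000 or above in their name that had a value above 0 in at least 3 of the 6 libraries. The list holds 581 miRNAs with such numbers, so 393 did not meet the detection rule. They were thus chosen by detection, the measured values above 0 in each library, and detection is given as a description without a test.

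The 6 libraries of small RNA came from livers of 3 mice on a normal diet, called NC, and of 3 on a high-fat diet, called MAFLD, with 1 library per liver. All were male C57BL/6 mice, a laboratory inbred strain with no engineered allele described, aged 8 weeks when the diets began and fed for 16 weeks. The methods describe 6 mice per diet and a fast of 6 hours before the livers were taken. Whole liver holds hepatocytes together with vessel, stromal and blood cells, so fewer cells of a type and less RNA per cell cannot be told apart. The comparison asks which miRNAs differ between the diet-induced fatty liver, as a model of metabolic dysfunction-associated fatty liver disease, and the control liver. The values are CPM, the share of a library's miRNA reads that a miRNA took, scaled alike in every library, and p-values measure only the spread between these 6 livers.

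A miRNA is cut from an RNA hairpin, first by Drosha in the nucleus and then by Dicer in the cytoplasm, and the mature strand guides Argonaute to target mRNAs through its seed, bases 2 to 8. The hairpin can give a mature strand from its 5p arm, its 3p arm or both. In mirtrons the hairpin is a short intron or the end of an intron, and splicing takes the place of the Drosha cut at 1 or both ends. MiRNAs are numbered in the order in which they were registered, so high numbers belong mostly to rare species that deep sequencing added late, mirtrons and pieces of other small RNAs among them.

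Sequences from RefSeq (GRCm38.p6) were matched to 160 of the 188 miRNAs, and 28 had no match, including miR-5099, miR-6407, miR-7029-3p and miR-7040-3p. The 9 sequences below are shown because these miRNAs were among the 12 with the highest mean level, and capitals mark the seed. All 9 seeds differ from each other.
miR-5110: gGAGGAGGuagagggugguggaauu
miR-6390: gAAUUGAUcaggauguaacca
miR-12204-5p: uUGAGUCUuagaugagug
miR-5121: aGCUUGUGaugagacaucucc
miR-12195-3p: cAGACAAGacuguuauaccc
miR-7649-5p: uGACAGCAgugcuguagacaug
miR-6997-5p: uAACAGGCuggagaggugcaga
miR-12182-3p: uAAUUAGGcucuggaucuguga
miR-6237: uUAAGGAUugggucuuggaauuc

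These miRNAs come from unlike places in the genome. MiR-5110 (chr11:85760675-85760699, minus strand) lies opposite Bcas3, and miR-6237 (chr9:9894484-9894506, plus strand) lies opposite Cntn5. MiR-6997-5p (chr2:29995955-29995976, plus strand) lies in an intron of Sptan1, which encodes a spectrin of the membrane skeleton. MiR-6390 (chr14:105623710-105623730, minus strand) overlaps an exon of the non-coding gene Gm6145, and miR-7649-5p (chr6:128974874-128974895, minus strand) an exon of the non-coding gene Gm15987. MiR-5121 (chr7:45126925-45126945, minus strand) lies within Snord33, a small nucleolar RNA made from an intron of the ribosomal protein gene Rpl13a. MiR-12204-5p (chr9:14180055-14180072, minus strand), miR-12195-3p (chr3:57317450-57317469, minus strand) and miR-12182-3p (chr11:86852604-86852625, minus strand) lie between genes.

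The next 5 sequences belong to miRNAs that the group comparison or the arm comparison below turns on, again with the seed in capitals. MiR-6375 (chr6:85790203-85790225, minus strand) lies opposite Alms1-ps2, miR-7015-5p (chr4:120973295-120973317, minus strand) in an intron of Smap2 and miR-7033-5p (chr5:135383783-135383805, minus strand) in an intron of Pom121, which encodes a nuclear pore protein. Both arms of miR-12184 lie in an intron of Gpld1, a gene for a phospholipase that the liver secretes, at chr13:24980056-24980077 for the 5p arm and chr13:24980094-24980114 for the 3p arm, on the plus strand.
miR-6375: gAAUUGGCugacuguauuccaaa
miR-7015-5p: uCUGUGCAguaggcuguggguuc
miR-7033-5p: uCUCCAGGagucugaggggcagg
miR-12184-5p: cUUGCAUGugggccugugugcu
miR-12184-3p: aCAGACGGgcucucaugcuga

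The libraries held 1336935 to 2549598 reads on miRNAs in NC and 1534569 to 4685712 in MAFLD. The hepatocyte markers miR-122-5p, miR-122-3p, miR-192-5p and miR-148a-3p, 4 of 4 listed, summed to 644972 to 814224 CPM in NC and 636381 to 710968 CPM in MAFLD, as liver tissue would have. MiR-148a-3p alone took 485207 to 713719 CPM in NC and 467575 to 567445 CPM in MAFLD. MiR-192-5p took 58193.9 to 74390.3 CPM in NC and 82160.5 to 97878.5 CPM in MAFLD. MiR-122-3p took 147 to 224 CPM in NC and 271 to 400 CPM in MAFLD. MiR-192-5p and miR-122-3p were thus higher in every MAFLD liver than in any NC liver. MiR-148a-3p and miR-122-5p overlapped between the groups. The 4 brain markers summed to 50.1 to 735 CPM in NC and 44.2 to 64.5 CPM in MAFLD, where miR-9-5p reached 344 CPM in NC replicate 1 and 530 CPM in NC replicate 2 but at most 12.4 CPM elsewhere. The 2 endothelial markers summed to 4710 to 6587 CPM in NC and 7659 to 10155 CPM in MAFLD, without overlap. The other lists overlapped between the groups, at 12342 to 29344 against 19161 to 26195 CPM for 4 stromal markers, 599 to 1202 against 427 to 982 CPM for 3 red blood cell markers and 133 to 231 against 179 to 313 CPM for 4 leukocyte markers. They stood at 51.4 to 241 against 37.1 to 229 CPM for 3 muscle markers and 0.784 to 6.73 against 2.35 to 6.52 CPM for 3 pancreas markers. The part of these differences in the results below was not tested.

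The late-annotated miRNAs were rare. Their mean over the 6 libraries ranged from 0.163 to 94.8 CPM with a median of 0.682 CPM, and 9 of them reached 10 CPM, 61 reached 1 CPM and 127 stayed under 1 CPM. Most rested on a handful of reads, with a median of 9 reads over all 6 libraries together and fewer than 20 reads for 151 of the 188. For scale, the median mean level was 0.894 CPM for 115 mid-numbered miRNAs, those from number 1000 up to 5000, and 3.87 CPM for 529 low-numbered miRNAs, let-7 included, that met the same detection rule. The most abundant miRNA reached 402 CPM in the former and 563928 CPM in the latter. Together the 188 took 0.0267% to 0.0927% of the reads of a library. The 12 most abundant held 58.7% of the summed mean level, and miR-5099 alone held 21.4%.

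MiR-5099 was the most abundant late-annotated miRNA in every library except MAFLD replicate 3. It stood at 110 CPM in NC replicate 1, 116 CPM in NC replicate 2 and 144 CPM in NC replicate 3. In MAFLD it stood at 58.5, 79.6 and 60.6 CPM in replicates 1, 2 and 3. Every NC liver was above every MAFLD liver, and the values rested on 93 to 373 reads per library.

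The other abundant miRNAs did not share this order. MiR-6390 stood at 20.8, 2.55 and 27.7 CPM in the NC replicates and 43.9, 25.8 and 20.2 CPM in the MAFLD replicates. Its groups overlapped, and NC replicate 2 was far below the other 5 libraries. MiR-5121, the miRNA within Snord33, stood at 6.28, 13.4 and 27.7 CPM in NC and 10.5, 4.70 and 18.9 CPM in MAFLD. The difference between its group means was smaller than the SD within either group. MiR-12195-3p was among the most even, at 12.9, 8.28 and 10.5 CPM in NC and 12, 14.7 and 15.6 CPM in MAFLD. MiR-12182-3p was likewise even, at 9.81, 14.0 and 8.98 CPM in NC and 9.75, 7.47 and 8.47 CPM in MAFLD. Both miRNAs come from between genes and overlapped between the groups. MiR-7649-5p stood at 5.10, 12.7 and 14.2 CPM in NC and 10.1, 6.62 and 16.9 CPM in MAFLD. MiR-6997-5p, from the Sptan1 intron, stood at 6.28, 26.1 and 12 CPM in NC and 3.00, 3.41 and 13.0 CPM in MAFLD. MiR-6407 stood at 4.31, 8.92 and 18.7 CPM in NC and 4.88, 5.34 and 8.47 CPM in MAFLD. The groups overlapped for all 3, and for miR-6997-5p it was MAFLD replicate 3 that lay among the NC values.

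**Figure D1:**
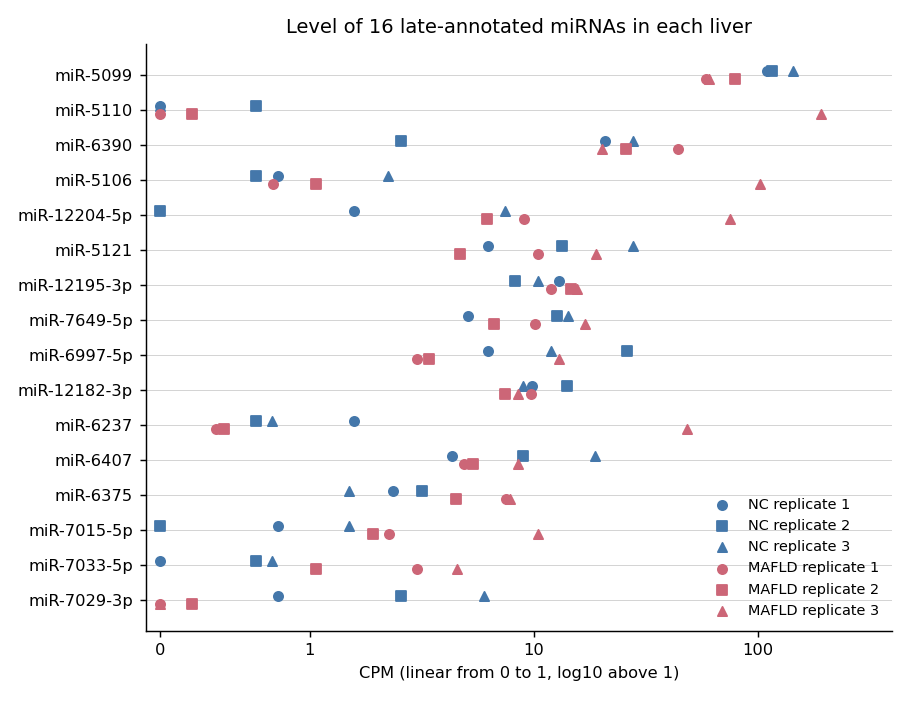
CPM (linear from 0 to 1, log10 above 1) of the 16 late-annotated miRNAs that are among the 12 most abundant or had an unadjusted p under 0.05, 1 point per liver, blue for NC and red for MAFLD, with a marker shape for each replicate number. NC and MAFLD points are apart for miR-5099, miR-6375, miR-7015-5p, miR-7033-5p and miR-7029-3p, and the MAFLD replicate 3 triangle lies far to the right for miR-5110, miR-5106, miR-12204-5p and miR-6237.

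Of the 12 most abundant, 4 owed their place to the library MAFLD replicate 3. MiR-5110 stood at 0, 0.637 and 0 CPM in NC and 0, 0.213 and 192 CPM in MAFLD, which is 294 of its 296 reads in that 1 library. MiR-5106 stood at 0.784, 0.637 and 2.24 CPM in NC and 0.750, 1.07 and 103 CPM in MAFLD. Outside MAFLD replicate 3, no library held more than 5 reads of either miRNA. MiR-6237 stood at 1.57, 0.637 and 0.748 CPM in NC and 0.375, 0.427 and 48.2 CPM in MAFLD. MiR-12204-5p stood at 1.57, 0 and 7.48 CPM in NC and 9.0, 6.19 and 75.6 CPM in MAFLD. It was above its NC range in MAFLD replicate 1 and within it in MAFLD replicate 2. In both of these libraries miR-5110 and miR-5106 were within theirs and miR-6237 was below its NC range.

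Of the 61 late-annotated miRNAs that averaged 1 CPM or more, 7 (11.5%) had a highest library at least 5 times the next, and in all 7 that library was MAFLD replicate 3. The other 3 are miR-6937-5p with 22.8 CPM there, miR-7040-3p with 19.5 CPM and miR-7237-3p with 15.0 CPM, and in no other library did they exceed 2.55 CPM. This group was formed after the values were seen. The same 7 kept this peak when the CPM values were rescaled by median ratios, a scaling that sets the typical miRNA equal between libraries. Such peaks were seen for 3 of 54 mid-numbered miRNAs (5.56%), all 3 in MAFLD replicate 3, and for 2 of 382 low-numbered miRNAs (0.524%). The mean used for the 1 CPM filter holds the peak itself, so a peak could bring a rare miRNA past it. MiR-5110, for one, did not exceed 0.637 CPM outside MAFLD replicate 3. Median mean levels were 0.682, 0.894 and 3.87 CPM in the late, mid-numbered and low-numbered classes. The shares are thus in part set by the filter.

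The summed level of the 188 followed this library. It was 276, 331 and 503 CPM in the NC replicates and 349, 267 and 927 CPM in the MAFLD replicates, or 370 ± 119 CPM against 514 ± 360 CPM (mean ± SD, n = 3 each). The groups overlapped, and MAFLD replicate 3 was higher than the rest. The 7 peak miRNAs made up 51.3% of the sum in that library and 1.73% to 3.66% in the other 5. Without them the sum was 362 ± 114 CPM in NC and 348 ± 97.6 CPM in MAFLD, so the log2 ratio of MAFLD to NC went from 0.47 to -0.055. It was -0.27 without MAFLD replicate 3.

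**Figure D2:**
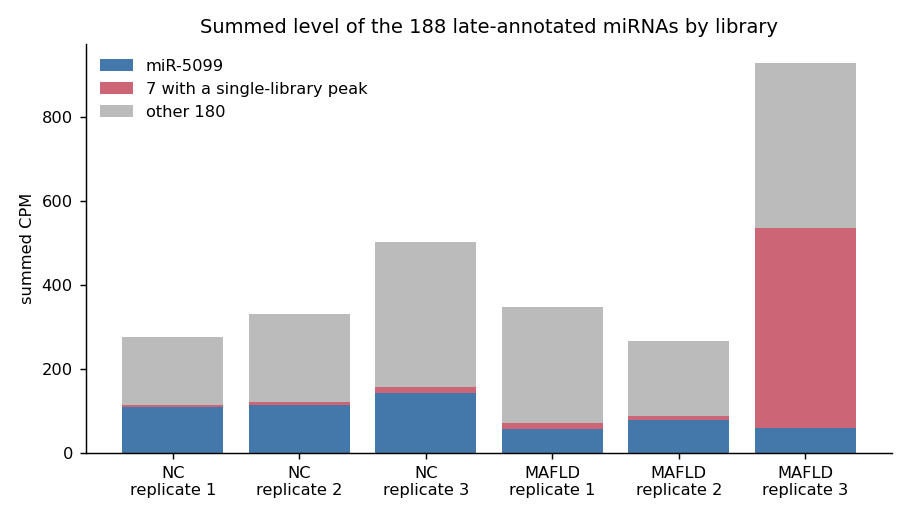
Summed CPM of the 188 late-annotated miRNAs in each of the 6 libraries, as stacked bars for miR-5099 (blue), the 7 miRNAs with a peak in a single library (red) and the other 180 (grey). MAFLD replicate 3 reaches 927 CPM, 51.3% of it in the red part, and the blue part is larger in each NC bar than in each MAFLD bar.

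The peak miRNAs miR-5110 and miR-6237 share the 7 letters UGGAAUU at their 3′ ends, a resemblance noticed after the values were seen. Capitals mark these letters below, and both sequences are shown for this shared ending.
miR-5110: ggaggagguagaggguggUGGAAUU
miR-6237: uuaaggauugggucuUGGAAUUc
The letters occur in 5 of the 1312 listed miRNAs with a sequence (0.381%), searched on the mature strand, and within 1 base of the 3′ end in these 2 alone. Of the other 3, miR-6919-5p stood at 2.61 CPM in MAFLD replicate 3, and miR-7216-3p and miR-6241 had no read there. The same letters open a 3′ adapter that many small RNA kits use. The adapter of these libraries was not given in the sources used here, and its part in these values was not tested.

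Detection differed by library and did not simply follow depth, since NC replicate 3, the shallowest, held the most of the NC livers. Of the 188 miRNAs, 118, 102 and 126 had a value above 0 in NC replicates 1, 2 and 3, against 147, 153 and 146 in the MAFLD replicates, a mean of 115 ± 12.2 against 149 ± 3.79 (SD, n = 3 each). The groups did not overlap. At the depth of the shallowest library, NC replicate 3, the expected numbers were 86.2, 94.0 and 126 in NC and 114, 90.3 and 139 in MAFLD. At that equal depth the groups overlapped, with means of 102 ± 21.1 and 115 ± 24.6. With at least 3 reads required, 43, 30 and 42 were found in NC and 78, 80 and 72 in MAFLD. Single reads made up much of the rest, since 52, 51 and 60 of the miRNAs in NC and 45, 46 and 47 in MAFLD had exactly 1 read. The other number classes showed the same order. Above 0 stood 72 to 84 of the 115 mid-numbered miRNAs in NC and 95 to 104 in MAFLD. Of the 529 low-numbered miRNAs, 429 to 457 were above 0 in NC and 471 to 486 in MAFLD. With at least 3 reads required, it was 36 to 43 against 53 to 68 mid-numbered and 336 to 346 against 351 to 391 low-numbered miRNAs. At the depth of the shallowest library the groups overlapped in both classes.

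**Figure D3:**
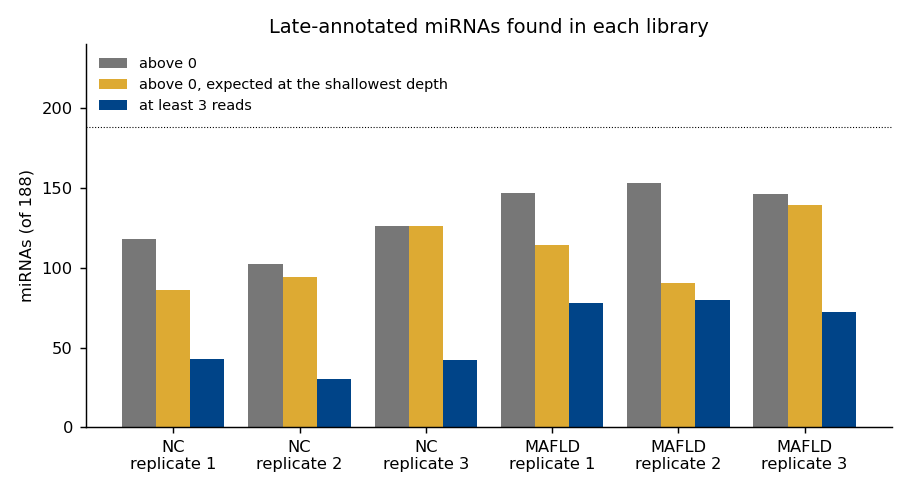
Number of the 188 late-annotated miRNAs (dotted line) found in each library, as grey bars for a value above 0, yellow bars for the number expected above 0 at the depth of the shallowest library and blue bars for at least 3 reads. The MAFLD bars are higher in grey (146 to 153 against 102 to 126) and in blue (72 to 80 against 30 to 43), and overlap with NC in yellow.

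In all 6 libraries, 34 of the 581 miRNAs with these numbers were above 0 (5.85%), against 44 of 237 mid-numbered (18.6%) and 331 of 728 low-numbered miRNAs (45.5%). Among the 188, 97 were above 0 in more MAFLD than NC livers, 33 in more NC than MAFLD livers and 58 in as many of both. The share found in more MAFLD livers was 51.6%, beside 49.6% of the mid-numbered and 20.6% of the low-numbered miRNAs. The share found in more NC livers was 17.6%, beside 7.83% and 10.4%. In 12 cases the miRNA was above 0 in all 3 MAFLD livers and at 0 in all 3 NC livers, with 3 to 11 reads in total. This was 6.38% of the 188, beside 5.22% of the mid-numbered and 1.51% of the low-numbered miRNAs that met the detection rule. The one with most reads, miR-6928-3p, had 4, 4 and 3 reads in the MAFLD replicates. The reverse held for miR-8090, with 4 reads in total, and miR-6395, with 3 reads. A count of 0 allows up to 3 reads, 1.18 to 2.24 CPM in the NC libraries, so absence from the NC livers could not be told at this depth.

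At the edge of the rule stood 66 miRNAs above 0 in exactly 3 libraries, with means of 0.163 to 32.1 CPM and a median of 0.399 CPM. The most abundant of them was miR-5110, described above. Just outside stood 139 miRNAs above 0 in exactly 2 libraries, with means of 0.0981 to 1.17 CPM and a median of 0.233 CPM. The most abundant of those was miR-9718, at 1.13 CPM in MAFLD replicate 1 and 5.86 CPM in MAFLD replicate 3.

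Many of the late-annotated miRNAs sit where an intron ends, the position expected of a mirtron. Of the 53 3p miRNAs among them with a matched position, 31 (58.5%) had a 3′ end within 2 bases of the end of an annotated intron on the same strand. The share was 5 of 31 (16.1%) for mid-numbered 3p miRNAs and 1 of 215 (0.465%) for low-numbered ones. Sequences ending in CAG, the usual last letters of an intron, made up 23 of the 53 (43.4%), against 2 of 31 (6.45%) and 4 of 215 (1.86%). These shares come from annotation, not from the reads, and were not tested. The following 4 are shown as examples that end in CAG at an intron end, chosen after their values were seen, with their last 3 letters in capitals.
miR-6966-3p: ugcugugugcuuccucugCAG
miR-7043-3p: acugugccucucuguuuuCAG
miR-6901-3p: gaccuucuguguucuugCAG
miR-7068-3p: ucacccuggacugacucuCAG

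MiR-6966-3p (chr17:25780859-25780879, plus strand) ends an intron of Narfl, miR-7043-3p (chr6:116645978-116645998, minus strand) an intron of Rassf4, and miR-6901-3p (chr1:93274585-93274604, plus strand) an intron of Sned1. MiR-7068-3p (chr8:72470016-72470036, minus strand) belongs to a hairpin that fills a whole Cherp intron of 74 bases. For no other of the 160 was a hairpin found to meet both ends of an intron. A hairpin met at least 1 intron boundary for 69 of the 160 (43.1%), beside 7 of 101 mid-numbered (6.93%) and 5 of 430 low-numbered miRNAs (1.16%). A miRNA without a matched hairpin, such as miR-7649-5p, counted as meeting none, so these are minimum counts. At the start of an intron stood 1 of 69 5p miRNAs. The 5p arm of a mirtron would lie there where the hairpin fills the intron. Where the hairpin is only the end of the intron, it would lie inside.

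**Figure D4:**
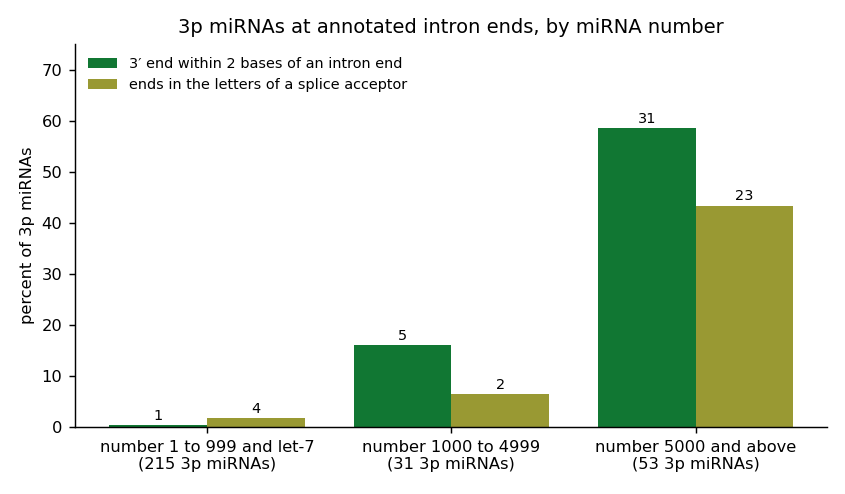
Percent of 3p miRNAs whose 3′ end lies within 2 bases of an annotated intron end (green) or that end in CAG (olive), by miRNA number, for miRNAs above 0 in at least 3 libraries, with the number of miRNAs above each bar. The bars for numbers of 5000 and above stand at 58.5% and 43.4%.

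The 31 3p miRNAs at intron ends were low in every liver. Their mean levels ranged from 0.207 to 3.36 CPM with a median of 0.470 CPM, and 3 of them reached 1 CPM. Their summed level was 13.7, 18.5 and 21.7 CPM in the NC replicates and 25.1, 16 and 28.7 CPM in the MAFLD replicates. The groups overlapped, since MAFLD replicate 2 lay within the NC range. Of the 31, 15 or 16 were above 0 in each NC liver and 21 to 25 in each MAFLD liver. The same order held for all 188, at 102 to 126 against 146 to 153. It also held for the 115 mid-numbered miRNAs, at 72 to 84 against 95 to 104. The counts of the 31 were not brought to equal depth.

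By annotation, 89 of the 160 (55.6%) lay in an intron of a protein-coding gene, 29 (18.1%) overlapped an exon of a protein-coding gene, 17 lay between genes and 14 opposite a gene. Exons here include those of transcripts that keep an intron. The intronic 89 had a median level of 0.567 CPM and together 114 CPM. Small RNA exons held 4, which are miR-5121 in Snord33, both arms of miR-6516 in the scaRNA Gm26083, a class that guides changes to spliceosomal RNA, and miR-7650-5p in the snoRNA Gm25500. MiR-7650-5p had no read in NC and 0.750, 0.213 and 3.91 CPM in the MAFLD replicates. Some exonic miRNAs lie in genes that hepatocytes use strongly. MiR-8114 overlaps Glul, the glutamine synthetase gene, and stood at 0.784, 0 and 1.5 CPM in NC and 2.25, 0.640 and 1.95 CPM in MAFLD, so its groups overlapped. MiR-7684-3p overlaps Cyp2d11, a cytochrome P450 gene of a family of close copies, and stood at 0.392, 0.637 and 0 CPM in NC and 0.750, 0.640 and 2.61 CPM in MAFLD. Its highest NC value, 0.637 CPM, lay just under its lowest MAFLD value, on 11 reads in all, and it was too rare to be tested.

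The late-annotated miRNAs had a median length of 22 bases, from 18 to 27. Their median share of G and C was 54.5%, beside 52.4% for the mid-numbered and 45.5% for the low-numbered miRNAs, and 11 of them (6.88%) reached a share of 70%. Seeds were compared among the 691 miRNAs that met the detection rule and had a matched sequence, so those without a sequence were not checked. Of the 160 seeds, 146 belonged to no other of these 691. Within that set, a seed was shared with a lower-numbered miRNA in 10 cases. MiR-6410 carries the seed of miR-24-3p, and its mean was 0.481 CPM beside 542 CPM for miR-24-3p. MiR-5129-3p carries the seed of miR-455-5p, at 0.879 CPM beside 1881 CPM. MiR-6240 carries the seed of miR-330-3p, at 4.19 CPM beside 1.56 CPM. The late-annotated miRNA was thus a trace beside its partner in the first 2 pairs. In the third it had the higher mean, but miR-330-3p was the higher in NC replicates 1 and 2 and in MAFLD replicate 2. MiR-6240 was highest in MAFLD replicate 3, at 12.4 CPM beside 1.30 CPM for miR-330-3p. In the other 7 cases all mean levels were under 2 CPM. Within the 188, miR-5106 and miR-6897-3p share a seed, as do miR-6945-3p and miR-6927-3p.

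By arm, 78 of the 188 were named 5p, 68 were named 3p and 42 had no arm in their name. The 42 without an arm name held most of the level, a summed mean of 252 CPM against 106 CPM for the 5p and 83.9 CPM for the 3p miRNAs. Both arms were listed for 82 hairpins with at least 1 arm among the 188, of which 15 had both arms, 31 only the 5p arm and 36 only the 3p arm among them. Over these hairpins the arms were near balance, with 743 reads from 5p and 768 from 3p. The rule kept an arm only where it was detected, so a heavier kept arm follows in part from the choice.

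Individual hairpins were far from balance. MiR-12195 gave 2 reads from 5p and 185 from 3p, a 5p share of 1.07% (95% Wilson interval 0.294% to 3.82%). MiR-6997 gave 117 reads from 5p and 2 from 3p, a 5p share of 98.3% (94.1% to 99.5%). The heavier arm was the same in all 6 libraries for both hairpins. MiR-6966 gave 6 reads from 5p and 47 from 3p, the arm at the intron end, a 5p share of 11.3% (5.29% to 22.6%). MiR-7010 gave 39 and 4 reads, a 5p share of 90.7% (78.4% to 96.3%). MiR-7015 gave 35 and 7 reads, a 5p share of 83.3% (69.4% to 91.7%), but this was not even over the libraries. Its 5p share was 40%, 0% and 100% in the NC replicates, on 2 to 5 reads each, and 100%, 90% and 94.1% in the MAFLD replicates, on 6 to 17 reads each. The intervals cover counting error only, since reads without molecular identifiers are not independent molecules.

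In other hairpins neither arm led. MiR-12184, from the Gpld1 intron, gave 46 reads from 5p and 63 from 3p, a 5p share of 42.2% (33.4% to 51.6%). Its 5p share was 55.6%, 63.6% and 53.8% in the NC replicates and 36.8%, 48.3% and 21.4% in the MAFLD replicates. Every NC liver was above every MAFLD liver, on 9 to 29 reads per library. MiR-6516, from the scaRNA, gave 21 and 11 reads, a 5p share of 65.6% (48.3% to 79.6%). Of 17 hairpins with at least 20 reads over all libraries, the interval lay above 50% in 7, below it in 5 and included it in 5. These calls pool the libraries. MAFLD replicate 3 held 35 of the 51 5p reads of miR-6937 and 23 of the 30 3p reads of miR-7237. Arm shares were not counted in the other number classes. No hairpin had 20 reads in every library, the minimum set for testing the arm share between the groups, so that test was not run.

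The group comparison used limma on log2(CPM + 1), over the 501 miRNAs that averaged 1 CPM or more, and 61 of the 188 passed that filter. At an adjusted p (Benjamini-Hochberg) under 0.05, 0 of the 61 were called, where 0.200% of all tested miRNAs were. An unadjusted p below 0.05 was reached by 6 of the 61 (9.84%), 4 higher and 2 lower in MAFLD, where 18.0% of all tested miRNAs were called, 13.4% higher and 4.59% lower. Without any overlap between the groups stood 6 of the 61 (9.84%), 4 higher and 2 lower, beside 19.4% of all tested, 15.2% higher and 4.19% lower. The share among the 61 was below the background on both counts, and the filter left out the 127 rarer miRNAs. The filter took the mean over both groups, so a rare miRNA could pass it through a single group, here and in the background. Under median-ratio scaling, 4 of the 61 (6.56%) were at an unadjusted p under 0.05, 1 higher and 3 lower, beside 16.2% of all tested, 7.19% higher and 8.98% lower. DESeq2 on the recovered reads called 1 at an adjusted p under 0.05, miR-5099, where 6.09% of all miRNAs with an adjusted p were called.

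Differences here are on the log2(CPM + 1) scale, MAFLD minus NC, and understate the change of rare miRNAs. The median difference was 0.40 over the 61 and 0.43 over all 501 tested, so the 2 medians were close. Median-ratio scaling brought these medians to 0.049 and 0.044. Of the 61, 40 had a higher and 21 a lower mean level in MAFLD, which became 32 and 29 under that scaling. On the CPM scale a difference of 0.43 is thus that of the median miRNA.

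**Figure D5:**
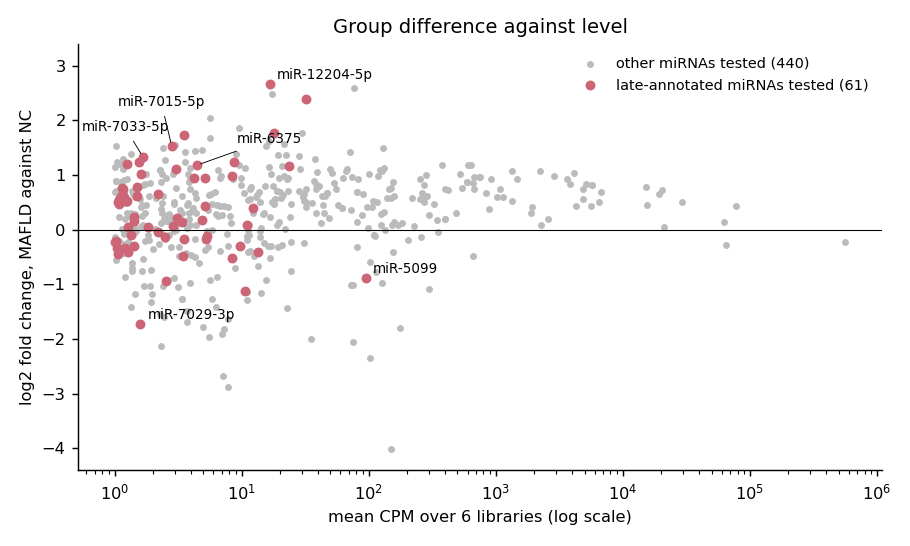
Difference of log2(CPM + 1) between MAFLD and NC against mean CPM (log scale), 1 point per miRNA, red for the 61 late-annotated miRNAs tested and grey for the other miRNAs tested. The red points lie mostly at the left, their median of 0.40 is close to the 0.43 of all 501, and the named ones are the 6 with an unadjusted p under 0.05.

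Among those lower in MAFLD, miR-5099 had 123 ± 18.4 CPM in NC and 66.2 ± 11.6 CPM in MAFLD (mean ± SD, n = 3 each), a log2 difference of -0.89 (SE 0.39, limma, adjusted p = 0.247). Its difference was -1.35 (adjusted p = 0.0554) under median-ratio scaling and -1.33 (adjusted p = 0.00372) in DESeq2, and was below 0 in all 16 alternatives. MiR-7029-3p stood at 0.784, 2.55 and 5.98 CPM in NC and 0, 0.213 and 0 CPM in MAFLD. All 3 NC livers were above the MAFLD livers, on 15 reads in all. With a mean of 0.0711 CPM in MAFLD, miR-7029-3p passed the 1 CPM filter only through the NC livers. Its log2 difference, which at this level depends on the 1 CPM added, was -1.73 (SE 0.65, limma, adjusted p = 0.208).

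Among those higher in MAFLD, miR-12204-5p had the lowest p, with 3.02 ± 3.94 CPM in NC and 30.3 ± 39.3 CPM in MAFLD and a log2 difference of 2.66 (SE 0.86, limma, adjusted p = 0.192). Its groups overlapped, and without MAFLD replicate 3, which held 116 of its 183 reads, the difference was 1.60. It passed an adjusted p of 0.05 without NC replicate 3 (adjusted p = 0.0164), where 22.8% of all 501 tested miRNAs passed. MiR-6375 stood at 2.35, 3.19 and 1.5 CPM in NC and 7.5, 4.48 and 7.82 CPM in MAFLD. Every MAFLD liver was above every NC liver, with a log2 difference of 1.18 (SE 0.53, limma, adjusted p = 0.251).

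MiR-7015-5p, from the Smap2 intron, stood at 0.784, 0 and 1.5 CPM in NC and 2.25, 1.92 and 10.4 CPM in MAFLD, with a log2 difference of 1.54 (SE 0.66, limma, adjusted p = 0.247). MiR-7033-5p, from the Pom121 intron, stood at 0, 0.637 and 0.748 CPM in NC and 3.00, 1.07 and 4.56 CPM in MAFLD, with a log2 difference of 1.34 (SE 0.62, limma, adjusted p = 0.269). Both were higher in every MAFLD liver than in any NC liver, at levels that in NC lay under 3 reads in every library. With NC means of 0.760 and 0.462 CPM, both passed the 1 CPM filter only through the MAFLD livers. Under median-ratio scaling the unadjusted p was 0.0591 for miR-7015-5p, 0.0582 for miR-7033-5p and 0.143 for miR-6375. MiR-7040-3p, the remaining miRNA without overlap, stood at 0.392, 0 and 0 CPM in NC and 0.750, 0.427 and 19.5 CPM in MAFLD, a log2 difference of 1.73 (SE 0.86, limma, adjusted p = 0.298). MAFLD replicate 3 held 30 of its 35 reads, and the groups were apart by 1 read in NC replicate 1 against 2 reads in MAFLD replicate 2. Its NC mean was 0.131 CPM, so it too passed the filter only through the MAFLD livers.

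For the most abundant miRNAs that peaked in MAFLD replicate 3, the differences had wide errors. MiR-5110 had a log2 difference of 2.39 (SE 1.39, limma adjusted p = 0.358), miR-5106 one of 1.77 (SE 1.12, adjusted p = 0.409) and miR-6237 one of 1.24 (SE 1.03, adjusted p = 0.516). Without that library they were -0.098, -0.15 and -0.47. MiR-6390 had a difference of 1.18 (SE 0.67, adjusted p = 0.349) and miR-6997-5p one of -1.12 (SE 0.62, adjusted p = 0.337). The arms of miR-12184 had differences of -0.17 for 5p (adjusted p = 0.896) and 0.94 for 3p (adjusted p = 0.410), and neither was beyond the spread between livers.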

How the data were processed

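Small RNA was sequenced from 3 NC and 3 MAFLD mouse livers (inserts of 14 to 40 nt, 50 cycles). The deposited values are CPM for each of 1546 mature miRNAs, which the authors scaled to all reads on listed miRNAs of that library. The submitters' processing notes name FastQC, cutadapt, Bowtie, edgeR and GRCm38 without versions, and the miRNA database version was not given in the sources used here. Reads counted for a miRNA cannot be told from reads of an overlapping small RNA. Whole reads were recovered by dividing by the smallest value above 0 of each library, and 100% of values came within 0.02 of a whole number. No counts of reads lost upstream were used here.

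Levels were compared in R 4.3.3 with limma 3.58.1 (lmFit, eBayes with a trend) on log2(CPM + 1), a pseudocount of 1, for the 501 miRNAs that averaged 1 CPM or more, with Benjamini-Hochberg adjustment over all of them and two-sided tests. The level of 3 reads in a library was the lowest read as present. Numbers expected at equal depth are exact hypergeometric expectations, and arm shares have 95% Wilson intervals (scipy 1.17.1). Named miRNAs are the 12 of highest mean CPM, those at an unadjusted p under 0.05 (up to 8 in each direction), those whose other arm had at least 20 reads and the most abundant at the edges of the detection rule. Any other miRNA was picked with its values in view. The miRNAs and lists were chosen with earlier results of these data known. Alternatives tried were a pseudocount of 0.1 or 5, a filter at 10 CPM or none, totals without miR-148a-3p, scaling by median ratios, limma without the trend, edgeR 4.0.16 (quasi-likelihood) and DESeq2 1.42.0 on the recovered reads, the replicate number as a block, and each library left out. Positions come from RefSeq sequences on GRCm38.p6 and GENCODE M21. HepG2 cells and plasma were not analysed here.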

Additional observations from a re-analysis of the deposited data

How the results depend on the processing

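No late-annotated miRNA passed an adjusted p of 0.05 in limma. The alternatives gave 2 without a filter (miR-5110 and miR-12204-5p, beside 11 of all 1467 tested), 1 in DESeq2 (miR-5099, with 16 adjusted p-values not given by DESeq2), 0 in edgeR and 0 to 1 with each library left out, the 1 being miR-12204-5p without NC replicate 3. The 6 at an unadjusted p under 0.05 became 13 of 188 without a filter (6.91%, beside 8.04% of all tested), 2 of 9 at a filter of 10 CPM (22.2%, beside 24.8%) and 3 to 11 of 61 with each library left out, 3 without MAFLD replicate 3 (4.92%, beside 12.2%) and 11 without MAFLD replicate 2 (18.0%, beside 17.8%). The log2 ratio of the summed level, 0.47, was -0.0093 under median-ratio scaling and -0.27 to 0.79 with each library left out, -0.27 without MAFLD replicate 3. It was -0.055 without the 7 peak miRNAs, an alternative chosen after seeing the data. The detection difference of 33.3 miRNAs was 12.6 at equal depth and 26.7 to 38.7 with each library left out. The 16 named miRNAs with a test had 249 alternative values, of which 14 turned direction. MiR-7649-5p did so under median-ratio scaling (-0.33), without miR-148a-3p in the total (-0.24), in edgeR (-0.36), in DESeq2 (-0.40), without NC replicate 1 (-0.33) and without MAFLD replicate 3 (-0.24). MiR-12195-3p did so under median-ratio scaling (-0.036), in edgeR (-0.060) and in DESeq2 (-0.12). MiR-5121 did so without NC replicate 3 (0.095) and without MAFLD replicate 2 (0.069). With each library left out, the ranges were -0.33 to 0.38 for miR-7649-5p, -0.89 to 0.095 for miR-5121, -0.098 to 3.70 for miR-5110, -0.15 to 2.79 for miR-5106 and -0.47 to 2.11 for miR-6237. Without MAFLD replicate 3, miR-5110 (-0.098), miR-5106 (-0.15) and miR-6237 (-0.47) did so. The cause was not tested.

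The replicate numbers 1 to 3 stand in the labels of both groups but name different mice, and same-numbered libraries did not deviate together (correlations of 0.012, -0.020 and -0.046). With the replicate number as a block, 1 late-annotated miRNA passed an adjusted p of 0.05 (miR-12204-5p, adjusted p = 0.0178), beside 5 of all 501 tested, and 8 of 61 were at an unadjusted p under 0.05 (13.1%, beside 18.4% of all tested). Depth limits most of these miRNAs, since 151 had fewer than 20 reads in all.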
